A study of Homo sapiens with 2 samples.

Results

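The 1 Mb window of chromosome 17 from 56000001 to 57000000 held the most strong PRDM1 peaks of any such window in U266 cells. PRDM1 (BLIMP-1) is the transcription factor that turns B cells into antibody-secreting plasma cells, and U266 is an established human multiple myeloma line, a tumour of plasma cells. The window contains MIR142 and the genes around it. All peaks of the authors' complete list whose summit lay in this window were taken, which gave 14 of 9669 peaks. Of these 14, 7 passed the authors' stricter limits, which ask for at least 50 tags and a false discovery rate (FDR) of 5% or less, where a tag is 1 aligned read after removal of duplicates. The window was chosen by its tag counts and FDR values, as the one with the highest number of such peaks, so that number describes it and supports nothing. Across the complete list 9.17% of peaks passed both limits.

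There were 2 libraries from U266 cells grown with fetal bovine serum and penicillin-streptomycin. In one, chromatin was immunoprecipitated with a rabbit monoclonal antibody against PRDM1 (clone C14A4), and 7854466 tags were kept. The other was input DNA from the same line, labelled as made without an antibody, and 8556458 tags were kept. The growth text also mentions 2-mercaptoethanol and a second myeloma line, NCI-H929, but both libraries carry the label U266 and neither was replicated. No test between conditions was possible, and peak lists cannot check the labelled cell type against marker expression. Intervals are exact 95% Poisson intervals of the tags and cover counting error only.

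PRDM1 binds DNA through zinc fingers at sequences with a GAAAG core, which resemble the interferon response elements bound by IRF proteins. It recruits chromatin-modifying corepressors and is known for silencing the B cell programme in plasma cells. MIR142 encodes a microRNA that is abundant throughout the blood lineages. SUPT4H1 is the human Spt4 protein, a subunit of the elongation factor DSIF that acts on RNA polymerase II. RNF43 is a membrane ubiquitin ligase that removes Frizzled receptors and so restrains Wnt signalling.

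Both mature strands of miR-142 are shown because MIR142 lay beside the closest group of peaks past both limits. Capitals mark the seed, bases 2 to 8, and both sequences are from RefSeq (GRCh38.p14).
hsa-miR-142-3p: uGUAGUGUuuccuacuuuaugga
hsa-miR-142-5p: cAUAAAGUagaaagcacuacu
The strands do not share a seed. Among 2545 mature entries of the same table, the 5p seed was shared by 1 other, hsa-miR-5590-3p, and the 3p seed by none.

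Gene extents were known to the nearest kb of GRCh37. BZRAP1 ran from 56378 to 56406 kb, MIR142 lay at 56409 kb, SUPT4H1 ran from 56422 to 56430 kb and RNF43 from 56429 to 56495 kb. MTMR4 ran from 56567 to 56595 kb, TEX14 from 56634 to 56769 kb and RAD51C from 56770 to 56812 kb. Distances to genes therefore hold to about 1 kb. Of these 7 genes, 5 had no peak summit inside them: MIR142, SUPT4H1, RNF43, MTMR4 and RAD51C. The other 2, BZRAP1 and TEX14, held 1 and 3 summits.

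**Figure D1:**
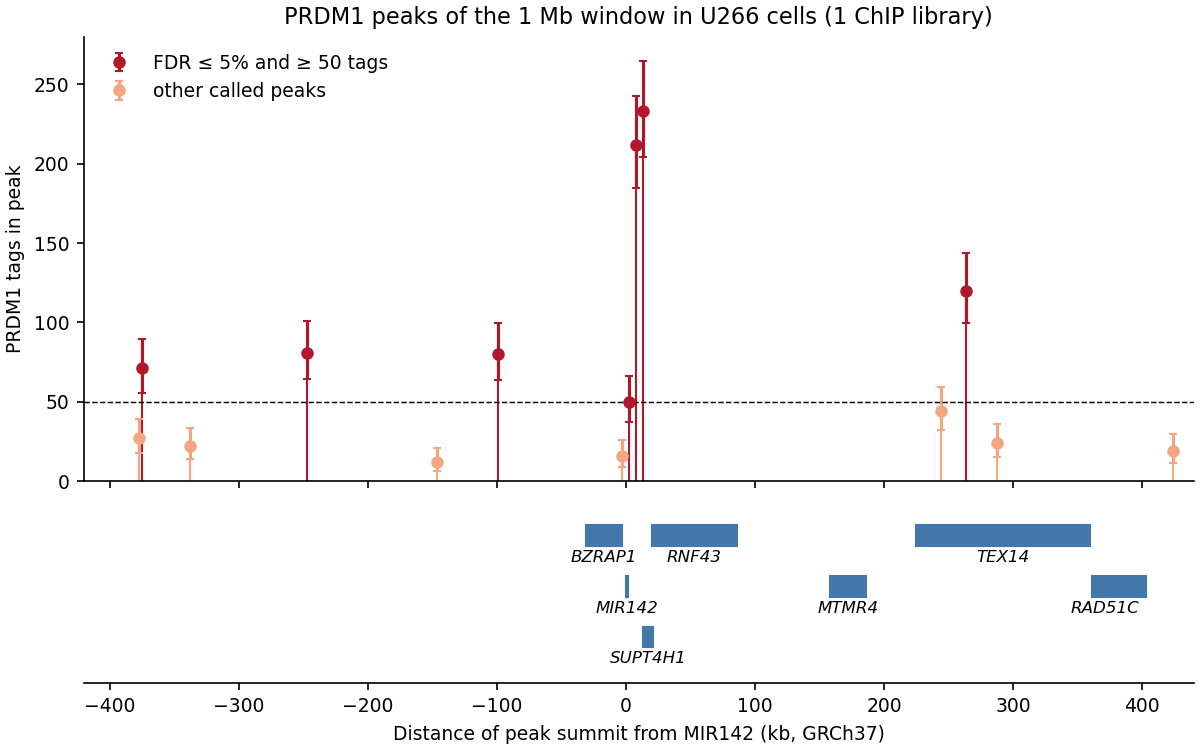
PRDM1 tags per peak (vertical axis, points with exact 95% Poisson intervals) against the distance of the summit from MIR142 in kb (horizontal axis), with the member genes as bars underneath and the 50-tag limit as a dashed line. The highest points, at 212 and 233 tags, stand between MIR142 and SUPT4H1, and the third, at 120 tags, stands in TEX14.

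The most tags and the highest summits lay in the stretch between MIR142 and SUPT4H1. The peak with the most tags ran from 56420997 to 56422915 with its summit at 56421933, less than 1 kb from the lower end of SUPT4H1. SUPT4H1 is on the minus strand in RefSeq, so this is its 3′ end. The peak held 233 tags (204 to 265), the 23rd highest count of the complete list. Its fold enrichment at the summit, the authors' own ratio of height to local background, was 69.4, and its FDR was 0%.

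A second peak of like size lay 5375 bp away, measured between summits. It ran from 56415594 to 56417530 and held 212 tags (184 to 243), the 30th highest count of the list. The intervals of these 2 tag counts overlap. Their fold values were further apart, with 37.1 at this peak and 69.4 at the peak beside SUPT4H1.

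The background solved for them also differed. The tags to be expected from the input alone were solved from each deposited score, after scaling to the depth of the input. They came to 23.2 scaled tags at the peak with 212 tags and 15.4 at the peak with 233 tags. Per base, this background stood at 3.79 and 2.52 times the genome mean. It was solved from the score and not counted from input reads. The authors' settings name input windows of 1000 and 10000 bp for it. Whether input tags under a peak also entered it was not tested. Values given below as input are this background. Tags over expected were 9.89 (8.64 to 11.4) and 16.5 (14.5 to 18.8). These intervals do not overlap, but they leave out any error of the expected number. That number is small at both peaks, so the gap does not show that the ratios differ, which was not tested.

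The third peak of the group was much weaker and was the closest to MIR142. It ran from 56409799 to 56411645, with its summit at 56411118, about 2.12 kb from MIR142. MIR142 is on the minus strand, so the summit lay on its 5′ side. The peak held exactly the 50 tags that the limit asks for (37.1 to 65.9), at a fold of 10.6 and an FDR of 0.3%. It had 3.25 times the expected tags (2.43 to 4.32), over an input of 2.84 times the genome mean. Its tag interval lay far below those of the other 2 peaks.

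**Figure D2:**
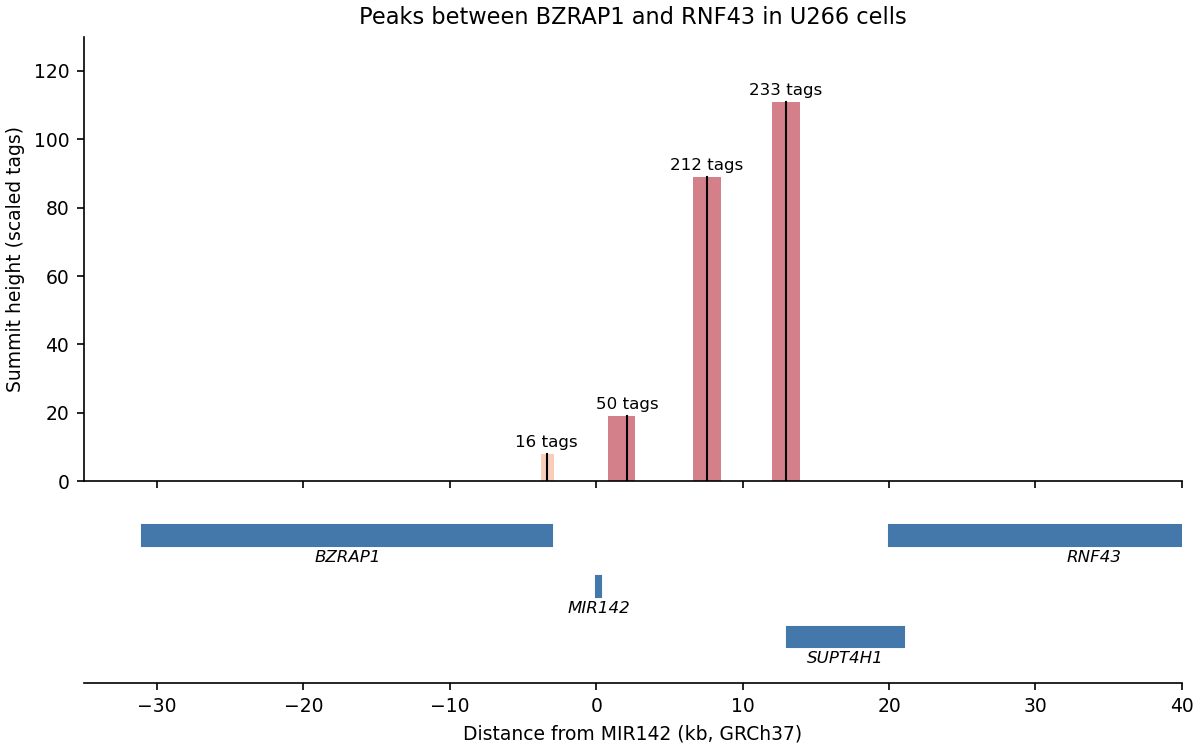
Peaks from BZRAP1 to the lower end of RNF43, drawn from start to end (horizontal axis, kb from MIR142) with the summit height in tags scaled to input depth (vertical axis), black lines at the summits and gene extents underneath. Summit heights are 8, 19, 89 and 111 scaled tags from left to right, and the peak at 111 touches the lower end of SUPT4H1.

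Summit heights showed the same order as the tags. The heights, obtained as the deposited fold times the recovered background over 200 bp, were 19 scaled tags at the peak beside MIR142, 89 at the peak with 212 tags and 111 at the peak beside SUPT4H1. The last 2 summits lay near the middle of their peaks, at 49.8% and 48.8% of the width. The summit of the peak beside MIR142 was off centre, at 71.4% of the width and towards the stronger peaks.

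RefSeq places further transcripts in this stretch. In the order of genes in GRCh38.p14, the long noncoding RNA TSPOAP1-AS1 spans MIR142, its host gene MIR142HG, the microRNA gene MIR4736 and all of SUPT4H1. MIR4736 is the gene that lies between MIR142 and SUPT4H1. The 3 peaks thus lay within the extent of this antisense RNA by gene order, while exons and introns of the files' build were not used here.

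Promoter sequences from RefSeq GRCh38.p14, covering 250 bases before to 50 after a start, were searched on both strands for 3 motifs. These were GAAAG, AGNGAAAG, a PRDM1-like core that contains GAAAG, and the interferon response core, which is GAAA repeated after 2 bases. The table held 10 promoters of 6 genes: TSPOAP1-AS1, MIR142HG, SUPT4H1, RNF43, MTMR4 and RAD51C. Some genes had several entries and those of RAD51C overlap each other, so the 10 are not independent. TEX14 had no entry. GAAAG occurred in 3 of the 10, against 54.7% of all 35116 promoters of the table. AGNGAAAG occurred in 1 of the 10, against 7.99% of all, and the interferon response core in none, against 3.57% of all.

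The promoter of MIR142HG and a promoter of RNF43 are shown, the first since the nearest peak lay on that side of MIR142 and the second since it held the AGNGAAAG match. Capitals mark motif matches. The first is chr17:58332471-58332770 and the second chr17:58417485-58417784, both on the minus strand of GRCh38.p14 and printed 5′ to 3′.
MIR142HG: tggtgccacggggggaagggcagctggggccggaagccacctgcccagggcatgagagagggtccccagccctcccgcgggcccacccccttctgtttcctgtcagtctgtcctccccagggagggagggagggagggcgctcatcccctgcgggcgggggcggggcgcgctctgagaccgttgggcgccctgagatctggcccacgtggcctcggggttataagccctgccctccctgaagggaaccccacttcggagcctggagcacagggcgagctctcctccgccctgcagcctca
RNF43: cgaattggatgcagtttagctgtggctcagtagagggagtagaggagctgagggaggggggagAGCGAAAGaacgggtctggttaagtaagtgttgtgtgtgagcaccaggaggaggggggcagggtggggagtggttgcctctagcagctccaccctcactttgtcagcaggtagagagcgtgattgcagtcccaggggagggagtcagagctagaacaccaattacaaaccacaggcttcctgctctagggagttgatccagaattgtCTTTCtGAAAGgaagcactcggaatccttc
The MIR142HG promoter held no match to the 3 motifs. The RNF43 promoter shown held AGCGAAAG at bases 64 to 71, and GAAAG on opposite strands at bases 271 to 275 and 277 to 281. The other RNF43 entry, chr17:58402672-58402971, held no match to the 3 motifs. No peak was called in RNF43, so its promoter match stood without a called peak. Whether the peak beside MIR142 covers the start of MIR142HG was not measured, since the promoter table and the peaks use different builds, and no peak sequence was read.

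Among peaks past both limits, the group of 3 stood apart in spacing. From the first to the last summit it spanned 10.8 kb, and together the 3 peaks held 495 of the 1011 tags of the window's peaks (49%, 95% Wilson interval 45.9 to 52). Of the 840 runs of 3 neighbouring peaks past both limits, this was the closest, and the only one within 20 kb. The run depends on the tag limit, since the peak beside MIR142 held exactly the 50 tags asked for. Runs that include called peaks below the limits were not ranked. The second closest run, on chromosome 21, spanned 48.4 kb with 286 tags, and the median run spanned 3359 kb. Among the 863 pairs of neighbouring peaks past the limits, 4 had at least 200 tags on both sides, and the pair between MIR142 and SUPT4H1 was the only one of these within 10 kb. The next closest of the 4, on chromosome 15, lay 27.5 kb apart with 206 and 329 tags. These are descriptions of 1 peak list, and the window was chosen for its number of peaks.

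**Figure D3:**
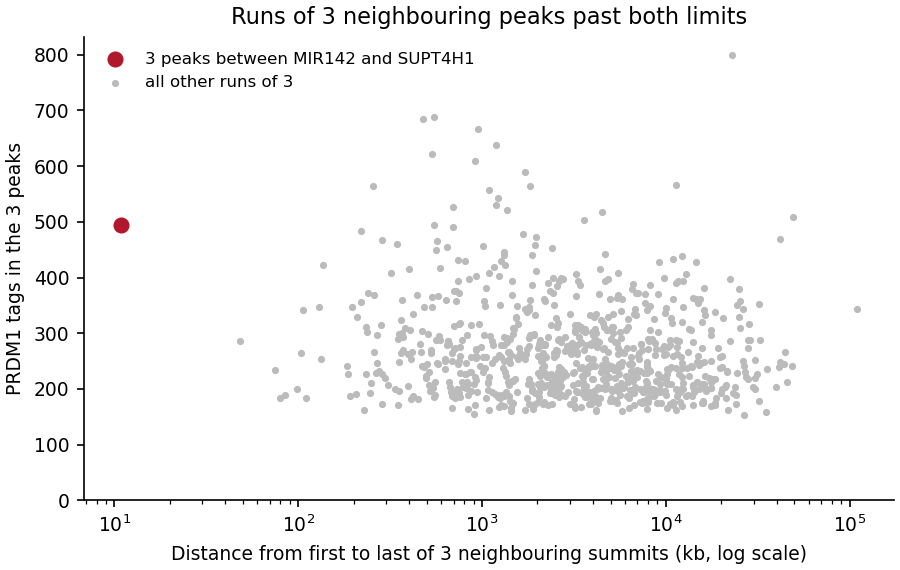
Every run of 3 neighbouring peaks past both limits, with the distance from the first to the last summit in kb (horizontal axis, log scale) and the tags of the 3 peaks together (vertical axis). The run between MIR142 and SUPT4H1, at 10.8 kb and 495 tags, lies to the left of all other runs, several of which hold more tags.

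TEX14, a gene needed for the bridges between male germ cells, held the peak with the third highest tag count of the window. This peak ran from 56672310 to 56673547 and held 120 tags (99.5 to 143). It was the narrowest of the 7 past the limits, at 1238 bp. Its summit height was 83 scaled tags, close to the 89 of the peak with 212 tags, so its signal was packed into a shorter stretch.

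Relative to input, the TEX14 peak was the strongest of the window. Its fold of 83 was the 43rd highest of the complete list. It held 21 times the expected tags (17.5 to 25.3), over an input of 1.58 times the genome mean. That interval overlaps the 14.5 to 18.8 of the peak beside SUPT4H1, and the difference between these 2 was not tested. The order by tags was the reverse, with 233 beside SUPT4H1 and 120 in TEX14.

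The other 2 peaks in TEX14 were below the tag limit on either side of the strong one. The peak with its summit at 56653033, 19817 bp away, held 44 tags (32 to 59.1) at 6.21 times expected and an FDR of 0.08%. It missed the limit of 50 by tags alone, and its interval includes 50, as does that of the peak beside MIR142 that just met it. The peak at 56696450, 23600 bp to the other side, held 24 tags at 6.5 times expected and an FDR of 0.27%.

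The genes between SUPT4H1 and TEX14 had no called peak. After the peak beside SUPT4H1 the next one began 229 kb further on, a stretch that covers nearly all of SUPT4H1 and the whole of RNF43 and MTMR4, a lipid phosphatase of endosomes. HSF5 and SEPTIN4 lie in the same interval in the RefSeq gene order. The summit nearest to RNF43 was 7.07 kb below its lower end, and the summit nearest to MTMR4 was 58 kb above it. Gaps of this length were common, since 108 of the 351 gaps between neighbouring peaks on chromosome 17 (30.8%) were as long and the median gap was 113 kb. The library held 2.91 PRDM1 tags per kb of effective genome and the smallest called peak had 9 tags, so weaker binding there was not detectable at this depth.

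RAD51C, a gene of homologous recombination, also had no summit inside it. The nearest peak was 20.8 kb above its upper end, at 56832793, with 19 tags (11.4 to 29.7), 4.78 times expected and an FDR of 4.01%. PPM1E is the next protein-coding gene on that side in RefSeq order.

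BZRAP1, named TSPOAP1 in RefSeq and coding for a scaffold protein of nerve terminals, held 1 weak peak. Its summit lay at 56405620, less than 1 kb inside the upper end of the gene. It held 16 tags (9.15 to 26), 3.34 times expected, and its FDR of 46.6% was the highest of the window. No RefSeq promoter sequence was matched for BZRAP1.

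The remaining 6 peaks lay below BZRAP1, 67.8 to 347 kb from it, and 3 of them passed the limits. The peak from 56032639 to 56034453 held 71 tags (55.5 to 89.6), 10.1 times expected. A peak of 27 tags ended 368 bp before it, with 5.05 times expected, the shortest gap between neighbours in the window. The tag intervals of this pair do not overlap.

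The other 2 strong peaks below BZRAP1 had almost the same tags but different expected tags. The peak from 56161318 to 56163319 held 81 tags (64.3 to 101) and the peak from 56309319 to 56310598 held 80 (63.4 to 99.6). The first stood over an input of 4.42 times the genome mean, the highest of the window, and held 3.14 times the expected tags (2.5 to 3.91). The second stood over 3.47 times the mean and held 6.18 times (4.91 to 7.7). Widths were 2002 and 1280 bp, so the expected tags, 28 and 14.1, differed by width as well as by input. The intervals of the ratio do not overlap although the tags were alike, but they leave out any error of the expected number. The weaker peaks at 56071299 and 56263020 held 22 and 12 tags, with 8.29 and 4.18 times expected. These 6 peaks were not assigned to genes, because no annotation of the files' build was used here.

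**Figure D4:**
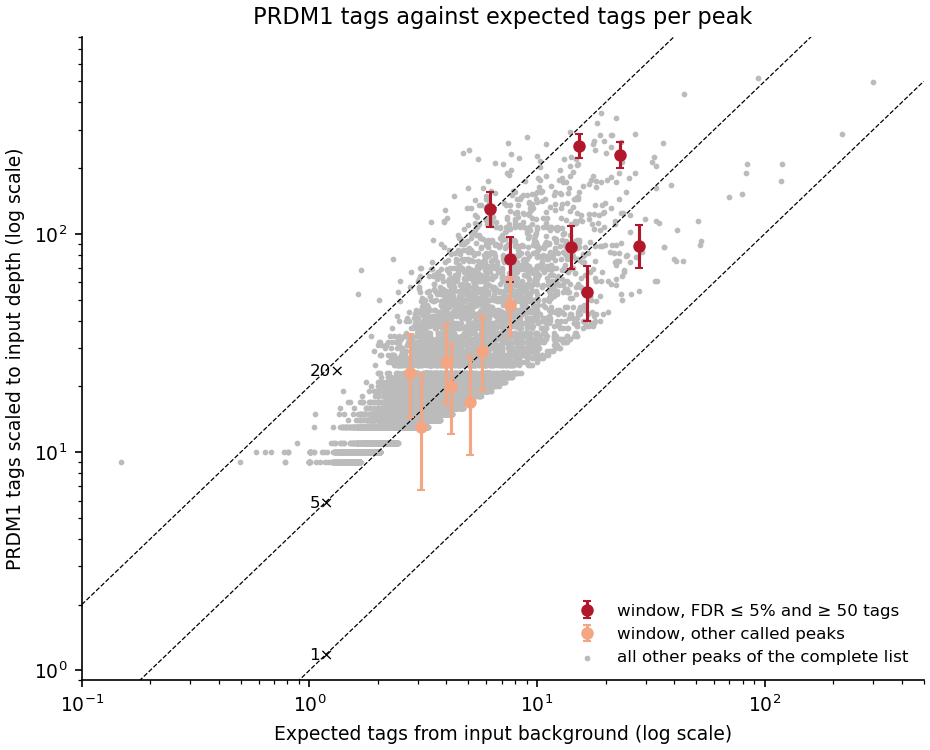
PRDM1 tags scaled to input depth (vertical axis, log scale, with exact 95% Poisson intervals for the window) against the tags expected from the input (horizontal axis, log scale), for the 14 peaks of the window and, in grey, the other peaks with a solved background; dashed lines mark 1, 5 and 20 times expected. The 7 peaks past the limits range from 3.14 to 21 times expected and mostly lie to the right, where more tags are expected.

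Across the 14 peaks the tags ranged from 12 to 233 with a median of 47, and the widths from 555 to 2002 bp. All 14 summits were within the middle 50% of their peaks. An FDR of at most 5% was reached by 12 of the 14, against 43.5% of the complete list, and 3 of the 14 also had at least 100 tags, against 2.36%. The 7 peaks past both limits held 847 of the 1011 tags (83.8%, 95% Wilson interval 81.4 to 85.9). These shares rest on the contrast that chose the window.

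Peak by peak, tags and tags over expected had medians near those of strong peaks elsewhere, while the fold was lower and the input higher. The 7 peaks past the limits had a median of 81 tags, against 77 for the 46 such peaks elsewhere on chromosome 17 and 72 for all 887. Their median of tags over expected was 9.89, against 10.6 elsewhere on the chromosome and 10.4 for all. The fold at the summit had a median of 17.9, against 31.7 and 31.4. The input beneath the 7 was 2.84 times the genome mean in the median, against 1.64 and 1.58. No test was made of these differences, since every one of these values comes from the same comparison of PRDM1 with input. The fold divides summit height by this background, and tags over expected divides the scaled tags by it. What part the input has in the lower fold was not tested. Median summit heights were alike, at 30 scaled tags for the 7, 29 elsewhere on the chromosome and 31 for all. The part of the input in the peak count was not tested.

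**Figure D5:**
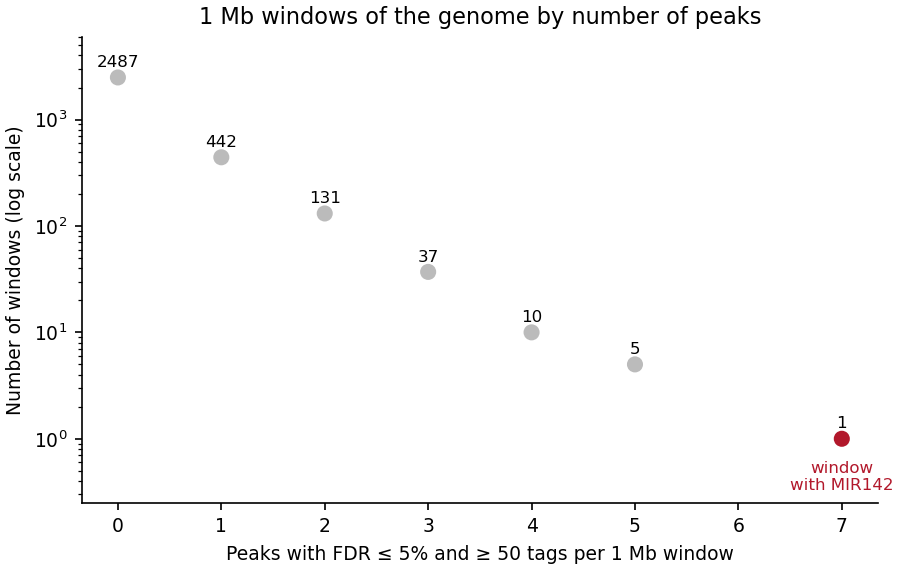
Number of 1 Mb windows (vertical axis, log scale) by the number of peaks past both limits that they hold (horizontal axis), for 3113 windows over GRCh37. The window with MIR142 holds 7, and 5 windows hold 5.

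Among the 3113 windows of the genome 2487 held no peak past the limits. The window around MIR142 also had the largest sum of tags in peaks, 1011, against a median of 39. By the number of peaks of the complete list it was not the first, since 7 windows held more than its 14 and the highest held 19. The 1 Mb below and the 1 Mb above each held 2 peaks past the limits, with 291 tags below and 324 above in all their called peaks.

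The 5 windows with 5 such peaks were the most alike, and none had peaks past the limits as close. They lay on chromosomes 1, 15, 16 and, for a pair of them, 21. Their peaks of the complete list numbered 7 to 15 and held 467 to 639 tags, against 14 peaks and 1011 tags around MIR142. Their closest 3 peaks past the limits spanned 48.4 to 362 kb, against 10.8 kb between MIR142 and SUPT4H1. The window of chromosome 16 also had 3 peaks of at least 100 tags, of which the highest held 140, against 233 around MIR142.

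Below the window, the next summit lay 70.6 kb outside, with 19 tags. Beside it, 72 kb outside, lay a strong peak of 160 tags at a fold of 58 and an FDR of 0%, past both limits. The next summit above the window lay 233 kb outside, with 76 tags. At the tag limit, the peaks with 50 and 44 tags were the last inside and the first outside.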

How the data were processed

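The submitters' processing notes name CASAVA 1.8.2, Bowtie 0.12.7 and MACS 1.4. Peaks were called by the authors with MACS 1.4.1 on merged alignments of each library, at a p of 1e-05, with fragments taken as 200 bp and input windows of 1000 and 10000 bp for the background, per the file headers. The deposited list gives raw tag counts per peak, a score of 10 times −log10 p, a fold ratio at the summit and an FDR in percent, all as the authors made them. Both deposited copies of the complete list held the same 9669 peaks, and the 887 deposited filtered peaks were recovered from the stated limits.

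A genome build is not given in the sources used here. No peak ran past a GRCh37 chromosome end, while 53 ran past one of GRCh38 (chromosome lengths were entered by hand), so coordinates are given as GRCh37, 1-based.

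Expected tags were solved from the score. Tags were multiplied by the ratio of input to PRDM1 tags, 1.09, and rounded down. The Poisson chance of a higher count then had to equal the score. Fold times this background over 200 bp gave whole summit heights within 0.06 tags for 98.7% of 9667 peaks and for all 14 here. The solving was tested on scores simulated with the same formula, which checks the arithmetic only and not how the authors' scores were made. Analyses used Python 3.11.15, scipy 1.17.1 and pandas 2.3.3.

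The window, genes and motifs were chosen with earlier results of these data known. The text names all 7 member genes. Other genes were named only by RefSeq order.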

Additional observations from a re-analysis of the deposited data

How the results depend on the processing

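The 7 peaks of the window past the limits were also 7 at an FDR of at most 1% and without peaks over an input of 5 times the genome mean or more. Neither setting could remove a peak, since the highest FDR of the 7 was 0.3% and the highest input 4.42 times the genome mean. The count was 9 from 25 tags, 5 with peaks within 10 kb counted once, and 3 from 100 tags. On a grid shifted by 0.5 Mb the lower window held 7 and the upper 2. Placed freely, a setting chosen after seeing the data, 1 Mb over this stretch held 8, against at most 6 elsewhere. Tags over expected had a median of 9.89, and of 11.3 with unscaled tags, 9.83 with tags rounded to the nearest, 6.19 over all 14 peaks, which adds weaker ones, and 8.14 without the 3 peaks between MIR142 and SUPT4H1, which was also chosen after seeing the data. Of the 7 peaks, 3 had a summit within 5 kb of a member gene, 4 within 10 kb and 1 inside one, and 2 overlapped one. The share of the window's tags was 83.8%, or 97.2% with no tag minimum. The motif settings around peak summits were not run, as no sequence of the files' build was used here. No paired analysis was possible because the PRDM1 and input libraries were single.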
